A study of Mus musculus with 24 samples.

Results

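The 10 core enzymes and regulators of triglyceride assembly and breakdown were followed in the mouse aorta: the assembly enzymes Gpam, Agpat2, Lpin1, Dgat1 and Dgat2, the lipases Pnpla2, Lipe and Mgll, the lipase co-activator Abhd5 and the lipase inhibitor G0s2. They were chosen by gene name and make up 10 of the 32561 genes in the deposited table. RNA came from whole aortas of 24 mice, 4 in each of 6 groups, which were bred to ask how renal failure, sex and a changed Bmp2 gene alter the transcriptome of this vessel. The 3 diseased groups carried the Klotho mutation on both alleles (Kl/Kl), for which the labels give renal disease: Bmp2+/+ males, Bmp2+/+ females, and males homozygous for the mutated Bmp2 allele ∆UCS. Each had a control group of the same sex and Bmp2 genotype with healthy kidneys. The controls carried 1 mutant Klotho allele (+/Kl), except Bmp2+/+ male control replicate 1, which was Klotho +/+. All animals were on the 129S1/SvlmJ background and 44 to 53 days old. Per the labels, mice came from crosses of heterozygotes, and cages received softened chow on the floor because Kl/Kl animals are small and weak, so the groups also differed in body size.

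Fat cells store fatty acids as triglyceride in lipid droplets. GPAM attaches the first fatty acid to glycerol 3-phosphate, AGPAT2 the second, lipins remove the phosphate to leave diacylglycerol, and DGAT1 or DGAT2 adds the last fatty acid. Breakdown runs through PNPLA2 (also called ATGL), hormone-sensitive lipase (LIPE) and monoglyceride lipase (MGLL), each of which takes off 1 fatty acid. ABHD5 activates PNPLA2 and G0S2 inhibits it. The thoracic aorta of the mouse is wrapped in perivascular fat that resembles brown fat, in which these genes are abundant. Adipoq, which encodes the fat hormone adiponectin, was used as the measure of fat cells. In whole tissue, fewer cells of a type and less RNA per cell cannot be told apart.

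Levels are given as TPM, a read share corrected for length. The deposited TPM was scaled by the genomic span of a gene, introns included, so levels are compared between libraries and not between genes. The sex labels of 2 libraries were at odds with their Xist, made from the inactive X, and Ddx3y, on the Y: Bmp2+/+ male Kl/Kl replicate 1 (11.4 TPM of Xist and 0.0138 TPM of Ddx3y) and Bmp2+/+ female Kl/Kl replicate 2 (0.0281 and 4.81 TPM). Their levels of Spp1, which encodes osteopontin, were 0.459 and 0.347 TPM, against 35.3 to 286 TPM in the other 10 Kl/Kl libraries and 0.199 to 5.54 TPM in the 12 controls. These 2 libraries were left out of the main comparisons, which leaves 22 libraries, and every comparison was also run with all 24. Klotho RNA was at or below 0.0175 TPM in every library and could not check the genotypes. Estimated depth was 20593347 to 61109242 reads per library, and genes of the mitochondrial genome held 40.2% to 61.2% of all TPM. The 22 libraries gave 1137 to 73544 estimated reads for each of the 10 genes.

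Agpat2 was the 1 gene of the 10 that passed the threshold in any Klotho comparison, that in Bmp2+/+ males. Of all genes, 1.11% passed there, 2.63% in Bmp2+/+ females and 0.649% in ∆UCS males. In Bmp2+/+ males Agpat2 fell to 7.97 ± 1.05 TPM in Kl/Kl aortas (SD, n = 3), against 43.5 ± 11.2 TPM in controls (SD, n = 4). The call was lost with all 24 libraries (adjusted p 0.644 by limma), under median-of-ratios scaling (0.0685), with voom (0.104), and when any of 6 of the 7 libraries was left out. Its Kl/Kl mean was also under the control mean in Bmp2+/+ females and in ∆UCS males, where it did not pass. The measured changes of Dgat2, Mgll, Lipe, Gpam and G0s2 were negative in all 3 strata without passing, and on the deposited scale Lpin1 had positive changes in all 3 (those in females and ∆UCS males reverse under another scaling). Adipoq did not pass in any Klotho comparison. Between ∆UCS and Bmp2+/+ males no gene of the 10 passed in TPM, although 2 passed relative to Adipoq in Kl/Kl aortas, in a fit where 28.4% of all genes passed. The summed TPM of brown adipocyte markers was 237 to 485 in Bmp2+/+ male Kl/Kl aortas and 780 to 1091 in controls, and macrophage markers rose in all 3 strata. The part of either in the differences of the 10 genes was not tested.

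**Figure D1:**
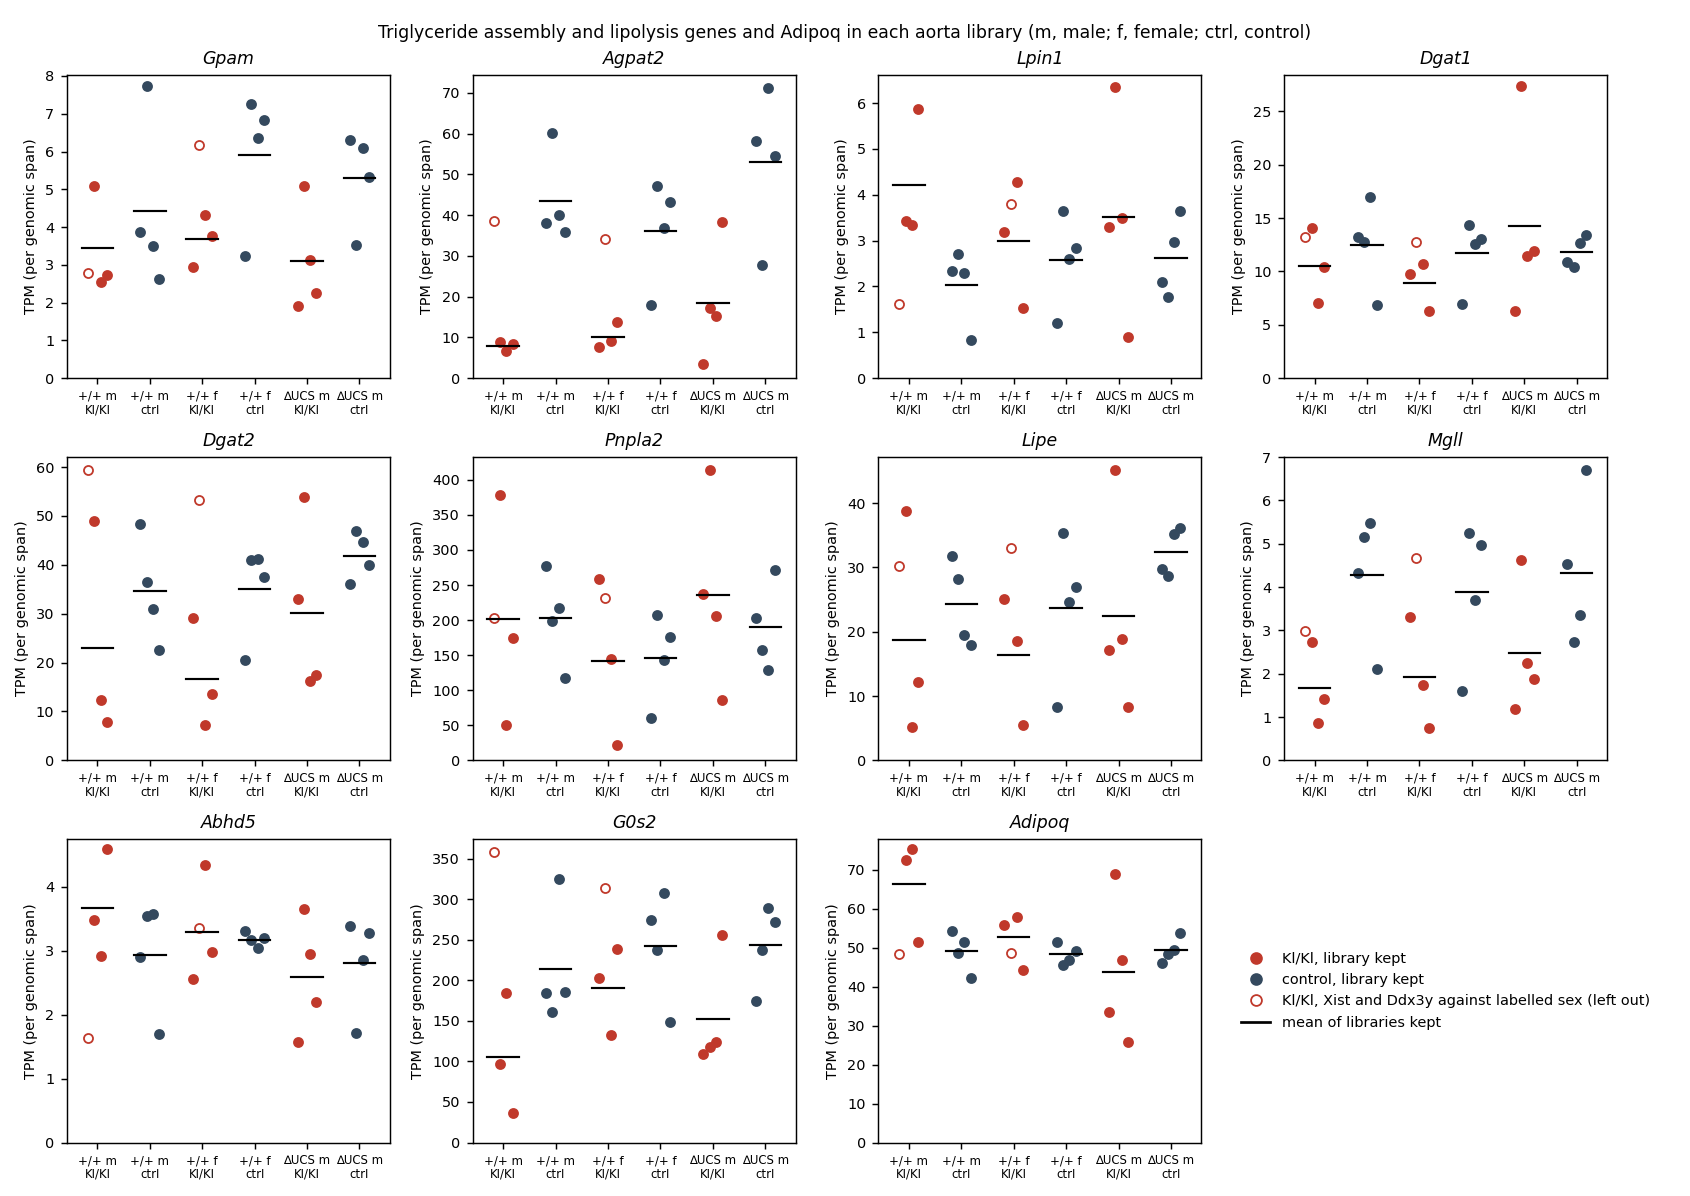
Level of the 10 genes and Adipoq in each of the 24 aorta libraries (vertical axes, TPM scaled by genomic span; horizontal axis, group, with each Kl/Kl group left of its controls). Filled points are the 22 libraries kept and open points the 2 left out, and black lines are means of the libraries kept. The Agpat2 points of the 3 Bmp2+/+ male Kl/Kl libraries kept lie between 6.78 and 8.77 TPM, under all 4 of their controls, while the open points lie at 38.5 and 34.2 TPM.

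Gpam (ENSMUSG00000024978, mm39 chromosome 19, 55055700 to 55115671, minus strand) catalyses the first step of assembly. In Bmp2+/+ males it had 5.10, 2.55 and 2.72 TPM in Kl/Kl replicates 2 to 4, against 3.88, 7.75, 3.49 and 2.62 TPM in controls. In Bmp2+/+ females Kl/Kl replicates 1, 3 and 4 had 2.95, 4.32 and 3.76 TPM, against 3.23, 7.26, 6.35 and 6.83 TPM in controls. The groups overlapped in both sexes. ∆UCS males had 1.91, 5.10, 3.13 and 2.25 TPM in Kl/Kl aortas and 6.30, 3.52, 6.08 and 5.34 TPM in controls, again with overlap. The log2 changes of log2(TPM + 1) were −0.24 in Bmp2+/+ males, −0.53 in Bmp2+/+ females and −0.66 in ∆UCS males, with adjusted p of 0.842, 0.306 and 0.278 in that order (limma, Benjamini-Hochberg).

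Agpat2 (ENSMUSG00000026922, mm39 chromosome 2, 26483069 to 26494430, minus strand) makes phosphatidic acid, and loss of its function in people causes generalized lipodystrophy. Because it is the gene whose difference passed, its promoter is shown: the 250 bases upstream of its start, from RefSeq on GRCm38.p6, chr2:26604418-26604667, minus strand, 5′ to 3′. All letters are in lower case because none of the 6 motifs searched, which are spelled out further on, occurs in it.
Agpat2: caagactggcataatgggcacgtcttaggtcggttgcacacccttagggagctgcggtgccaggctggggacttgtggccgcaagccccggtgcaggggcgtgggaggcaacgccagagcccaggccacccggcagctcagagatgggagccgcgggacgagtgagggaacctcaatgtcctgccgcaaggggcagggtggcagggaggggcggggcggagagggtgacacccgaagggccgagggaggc

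In Bmp2+/+ males Agpat2 was measured at 8.77, 6.78 and 8.36 TPM in Kl/Kl replicates 2 to 4, against 38.0, 60.1, 39.9 and 35.9 TPM in controls. The 3 Kl/Kl values lay close together and below every control. The log2 change was −2.25 with a standard error of 0.53 and an adjusted p of 0.0409 (limma, Benjamini-Hochberg over 9861 genes), and the ratio of means was 0.183. Kl/Kl replicate 1, the library left out, had 38.5 TPM, inside the control range. With it, the log2 change was −1.75 with an adjusted p of 0.644. Of the 7 libraries in this comparison, leaving out any but Kl/Kl replicate 3 ended the call, with adjusted p of up to 0.591, while the log2 change stayed between −2.37 and −2.12 in those 6 fits. The call was also lost when libraries were scaled by the median of their ratios to the mean library (−2.41, adjusted p 0.0685), by limma voom on estimated reads (−2.55, adjusted p 0.104) and with no filter on low genes (adjusted p 0.0977). The library names came in 2 spellings, taken as 2 library sets. Set 1 alone, with 2 Kl/Kl and 2 control libraries, gave −2.20 without passing.

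Female Kl/Kl replicates 1, 3 and 4 had 7.58, 9.08 and 13.8 TPM of Agpat2, against 17.9, 47.1, 36.8 and 43.1 TPM in controls. These groups did not overlap either, although control replicate 1 stood apart from the other 3 controls. The log2 change was −1.69 ± 0.52 (SE) with an adjusted p of 0.0799 by limma. Without that control it was −1.99 with an adjusted p of 0.0411. Kl/Kl replicate 2, which was left out, had 34.2 TPM, and including it gave −1.27 with an adjusted p of 0.328. All female libraries belonged to library set 2.

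In ∆UCS males Agpat2 had 3.38, 17.2, 15.1 and 38.2 TPM in Kl/Kl aortas, against 58.2, 27.8, 71.1 and 54.6 TPM in controls. Kl/Kl replicate 4 was above control replicate 2, so the groups overlapped. The log2 change was −1.77 ± 0.48 (SE) with an adjusted p of 0.0767 by limma. Without Kl/Kl replicate 4 it was −2.23 with an adjusted p of 0.0139. Neither the difference between ∆UCS and Bmp2+/+ males in the Klotho effect on Agpat2 (0.48) nor that between the sexes (0.56, females minus males) passed, with adjusted p of 0.954 and 0.988 by limma, and 0% of all genes passed in either test of a difference.

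Lpin1 (ENSMUSG00000020593, mm39 chromosome 12, 16585670 to 16696968, minus strand) encodes a lipin, a phosphatidic acid phosphatase that also acts as a transcriptional co-activator in mouse liver. Bmp2+/+ males had 3.42, 3.33 and 5.86 TPM in Kl/Kl replicates 2 to 4, against 2.33, 2.70, 2.29 and 0.827 TPM in controls. All 3 Kl/Kl libraries lay above the controls, and Kl/Kl replicate 1, left out, lay among the controls at 1.61 TPM. The log2 change of 0.80 ± 0.40 (SE) had an adjusted p of 0.474 by limma. In Bmp2+/+ females Lpin1 ran from 1.53 to 4.28 TPM in Kl/Kl aortas and from 1.21 to 3.64 TPM in controls. In ∆UCS males it ran from 0.894 to 6.35 TPM in Kl/Kl aortas and from 1.78 to 3.65 TPM in controls. The log2 changes there were 0.15 and 0.19, which turned to −0.22 and −0.10 when libraries were scaled by the median of ratios.

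Dgat1 and Dgat2 encode unrelated enzymes for the same last step. Dgat1 (ENSMUSG00000022555, mm39 chromosome 15, 76386215 to 76396154, minus strand) had 7.08 to 14.1 TPM in Bmp2+/+ male Kl/Kl aortas and 6.87 to 16.9 TPM in their controls. Bmp2+/+ females had 6.33 to 10.7 TPM in Kl/Kl aortas and 6.90 to 14.3 TPM in controls. In ∆UCS males, Kl/Kl aortas had 6.31 to 27.4 TPM and controls 10.4 to 13.4 TPM. All 3 pairs of groups overlapped. The log2 changes were −0.27, −0.34 and 0.08 in that order, with the last at −0.24 under median-of-ratios scaling.

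Dgat2 (ENSMUSG00000030747, mm39 chromosome 7, 98802865 to 98831927, minus strand) spread more widely among Kl/Kl aortas than among controls in Bmp2+/+ males, with 49.1, 12.3 and 7.77 TPM in Kl/Kl replicates 2 to 4 and 48.4, 36.5, 31.0 and 22.5 TPM in controls. Bmp2+/+ females had 29.2, 7.17 and 13.5 TPM in Kl/Kl replicates 1, 3 and 4, against 20.6, 41.1, 41.1 and 37.6 TPM in controls. In males 1 Kl/Kl library lay just above the highest control and the other 2 below the lowest, and in females 1 Kl/Kl library lay within the control range and the other 2 below it. ∆UCS males had 33.0, 54.0, 16.3 and 17.5 TPM in Kl/Kl aortas, against 36.0, 46.9, 44.7 and 39.9 TPM in controls. Here 1 Kl/Kl library was above the controls and 3 were below. The log2 changes were −1.08, −1.19 and −0.62 in that order, with adjusted p of 0.436, 0.156 and 0.453 by limma. Under median-of-ratios scaling the female change was −1.66 with an adjusted p of 0.0337, the 1 member called there, where 3.80% of all genes were called. With limma voom on estimated reads it was −1.84 with an adjusted p of 0.0227, where 3.33% of all genes were called. The 2 libraries left out were high in Dgat2, at 59.5 TPM in the male and 53.2 TPM in the female one.

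**Figure D2:**
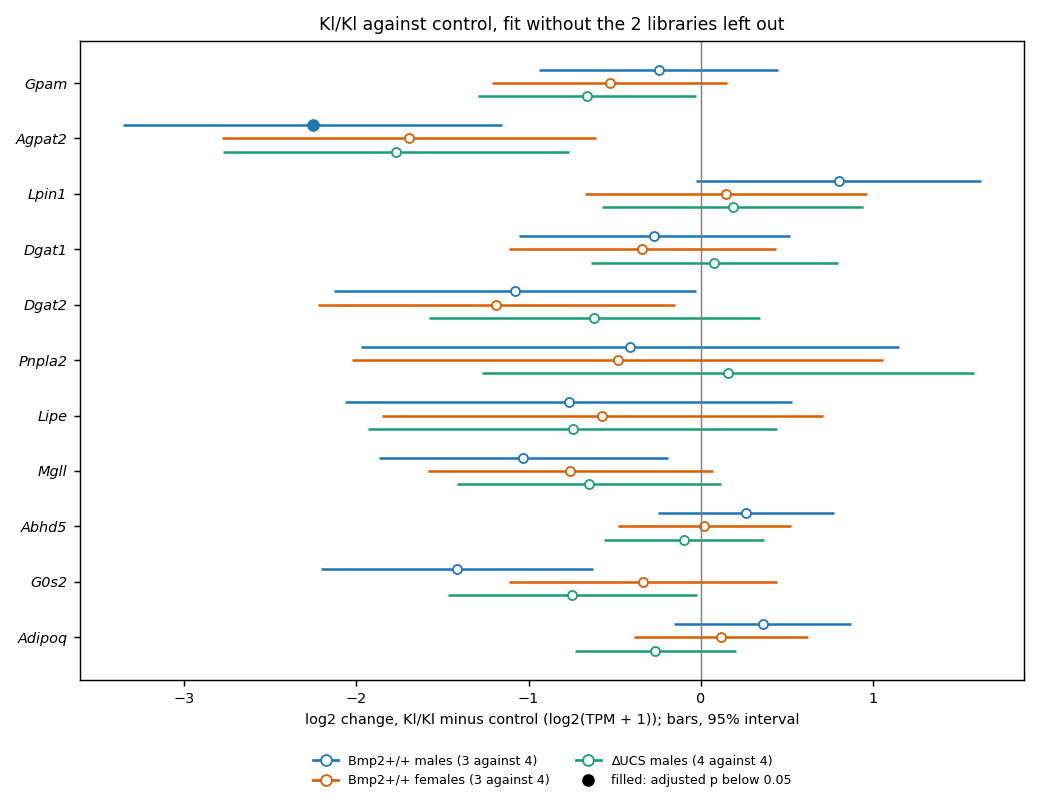
Change of each gene in Kl/Kl relative to control aortas (horizontal axis, difference in log2(TPM + 1)) with a row for each gene, for the 3 strata in 3 colours. Points are limma estimates and bars 95% intervals from the fit on 22 libraries, and a filled point marks an adjusted p below 0.05. Agpat2 in Bmp2+/+ males is the 1 filled point, and the intervals of Adipoq span 0 in all 3 strata (its female sign reverses under median-of-ratios scaling, as do those of Lpin1 and Abhd5 in females and of Lpin1, Dgat1 and Pnpla2 in ∆UCS males).

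The lipases varied together from library to library. Pnpla2 (ENSMUSG00000025509, mm39 chromosome 7, 141035111 to 141040657, plus strand) starts the breakdown of triglyceride, Lipe (ENSMUSG00000003123, mm39 chromosome 7, 25078952 to 25098136, minus strand) acts mainly on diacylglycerol, and Mgll (ENSMUSG00000033174, mm39 chromosome 6, 88701394 to 88805343, plus strand) acts on monoacylglycerol. Because these 3 genes moved together, their promoters are shown as the 250 bases upstream of a start, from RefSeq on GRCm38.p6, 5′ to 3′. They lie at chr7:141454938-141455187 (Pnpla2, plus strand), chr7:25395988-25396237 (Lipe, minus strand) and chr6:88724162-88724411 (Mgll, plus strand). Capitals mark CACGTG, an E-box.
Pnpla2: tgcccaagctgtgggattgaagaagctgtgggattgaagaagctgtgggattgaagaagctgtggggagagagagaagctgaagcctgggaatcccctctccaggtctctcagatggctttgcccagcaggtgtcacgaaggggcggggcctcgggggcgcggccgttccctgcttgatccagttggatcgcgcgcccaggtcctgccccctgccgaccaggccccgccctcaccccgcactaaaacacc
Lipe: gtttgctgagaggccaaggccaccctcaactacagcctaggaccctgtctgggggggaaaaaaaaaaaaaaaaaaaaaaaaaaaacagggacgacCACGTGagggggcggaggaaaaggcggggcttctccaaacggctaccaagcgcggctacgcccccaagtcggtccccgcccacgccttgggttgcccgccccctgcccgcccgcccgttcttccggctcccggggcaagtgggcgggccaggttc
Mgll: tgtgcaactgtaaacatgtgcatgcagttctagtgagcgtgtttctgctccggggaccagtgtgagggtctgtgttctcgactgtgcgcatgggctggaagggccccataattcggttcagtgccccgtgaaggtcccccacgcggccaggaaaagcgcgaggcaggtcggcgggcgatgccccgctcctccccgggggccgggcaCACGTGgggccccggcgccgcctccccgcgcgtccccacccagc

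Of the 10 genes, 8 had promoters in the RefSeq table, 11 promoters in all, and 6 motifs were searched on both strands of the 250 bases. CACGTG was in 2 of the 11, those of Lipe and Mgll printed above, against 6.02% of 32851 mouse promoters. Each of these genes has another listed start whose promoter lacks it. AGGTCA, a binding element of many nuclear receptors, was in those of Gpam, Lpin1 and Abhd5, against 14.02% of all promoters. CCAAT was in that of Gpam, against 33.9%. A PPAR-type direct repeat of AGGTCA with 1 base between the copies, each of which is itself an AGGTCA match (0.0335% of all promoters), TCACNCCAC, a sterol response element (1.05%), and TTGCNNAA, a C/EBP palindrome (9.56%), were in none of the 11.

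In Bmp2+/+ males Pnpla2 had 379, 50.8 and 175 TPM in Kl/Kl replicates 2 to 4, against 277, 199, 217 and 118 TPM in controls. Bmp2+/+ females had 259, 144 and 22.4 TPM in Kl/Kl replicates 1, 3 and 4, against 59.8, 207, 144 and 176 TPM in controls. ∆UCS males had 237, 413, 206 and 86.2 TPM in Kl/Kl aortas, against 204, 158, 129 and 272 TPM in controls. In every stratum the Kl/Kl aortas spanned the whole control range, and in Bmp2+/+ mice group means lay close together: 201 and 203 TPM in Bmp2+/+ male Kl/Kl and control aortas, 142 and 146 TPM in the female groups. Log2 changes were −0.41, −0.48 and 0.16, with 95% intervals of −1.98 to 1.15 in Bmp2+/+ males, −2.02 to 1.06 in Bmp2+/+ females and −1.27 to 1.59 in ∆UCS males. The last was −0.19 under median-of-ratios scaling. In Bmp2+/+ females, the Pnpla2 change ran from −1.20 to 0.54 as single libraries were left out.

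Lipe in Bmp2+/+ males had 38.8, 5.24 and 12.1 TPM in Kl/Kl replicates 2 to 4, against 31.7, 28.2, 19.5 and 17.9 TPM in controls. In Bmp2+/+ females it had 25.2, 18.6 and 5.45 TPM in Kl/Kl replicates 1, 3 and 4, against 8.27, 35.3, 24.6 and 26.9 TPM in controls. ∆UCS males had 17.1, 45.2, 18.9 and 8.35 TPM in Kl/Kl aortas, against 29.7, 28.7, 35.2 and 36.2 TPM in controls. The same libraries were low in Lipe as in Pnpla2: Bmp2+/+ male Kl/Kl replicate 3, female Kl/Kl replicate 4, ∆UCS Kl/Kl replicate 4 and female control replicate 1. Both female libraries named here hold neighbouring numbers in their library names and came from animals 50 days old. Whether they were paired was not tested. The log2 changes of Lipe were −0.77, −0.57 and −0.74, with adjusted p of 0.69, 0.557 and 0.462 by limma.

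Mgll had 2.74, 0.867 and 1.43 TPM in Bmp2+/+ male Kl/Kl replicates 2 to 4, against 4.33, 5.16, 5.49 and 2.10 TPM in controls. Bmp2+/+ females had 3.30, 1.73 and 0.738 TPM in Kl/Kl replicates 1, 3 and 4, against 1.60, 5.24, 3.70 and 4.97 TPM in controls. ∆UCS males had 1.19, 4.62, 2.25 and 1.87 TPM in Kl/Kl aortas, against 4.54, 2.72, 3.35 and 6.71 TPM in controls. In each stratum 1 Kl/Kl library or more lay above the lowest control, so the groups overlapped. The log2 changes were −1.03 ± 0.40, −0.76 ± 0.39 and −0.65 ± 0.37 (SE), with adjusted p of 0.319, 0.234 and 0.356 by limma.

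Abhd5 (ENSMUSG00000032540, mm39 chromosome 9, 122180673 to 122210590, plus strand), the co-activator of PNPLA2, stayed within a narrow span. It had 2.92 to 4.59 TPM in Bmp2+/+ male Kl/Kl aortas and 1.69 to 3.58 TPM in controls, 2.56 to 4.34 TPM in female Kl/Kl aortas and 3.03 to 3.30 TPM in controls, and 1.57 to 3.64 TPM in ∆UCS Kl/Kl aortas and 1.72 to 3.38 TPM in controls. The groups overlapped in all 3 strata. Changes on the log2 scale were 0.26, 0.02 and −0.10, and the female change was −0.35 under median-of-ratios scaling.

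G0s2 (ENSMUSG00000009633, mm39 chromosome 1, 192954469 to 192955526, minus strand), the inhibitor of PNPLA2, had 97.2, 184 and 35.9 TPM in Bmp2+/+ male Kl/Kl replicates 2 to 4, against 184, 161, 325 and 186 TPM in controls. Kl/Kl replicate 3 lay within the control range and the other 2 lay below it. The log2 change was −1.41 ± 0.38 (SE) with an adjusted p of 0.0857 by limma. It passed without Kl/Kl replicate 3 (−1.78, adjusted p 0.0125) and without control replicate 1 (−1.76, adjusted p 0.0345). Kl/Kl replicate 1, left out, had the highest G0s2 of all 24 libraries, 358 TPM, and with it the change was −0.73.

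Female Kl/Kl replicates 1, 3 and 4 had 202, 132 and 238 TPM of G0s2, against 275, 238, 308 and 149 TPM in controls, and the groups overlapped. ∆UCS males had 109, 118, 124 and 256 TPM in Kl/Kl aortas, against 174, 238, 290 and 272 TPM in controls. There 3 of the 4 Kl/Kl libraries lay below every control and the other lay among them. Their log2 changes were −0.33 and −0.74, with adjusted p of 0.574 and 0.283 by limma. The difference between the sexes in the Klotho effect on G0s2 was 1.08 (females minus males, 95% interval −0.03 to 2.19) and did not pass, with an adjusted p of 0.988.

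Counts of the 10 were set beside those over all genes tested. In Bmp2+/+ males 1 of the 10 passed the threshold of an adjusted p below 0.05, where 1.11% of 9861 genes did in either direction and 0.0608% fell. In Bmp2+/+ females 0 passed, where 2.63% of all genes did and 0.0203% fell, and in ∆UCS males 0 passed, where 0.649% did. At an unadjusted p below 0.05 by limma, 4, 2 and 3 of the 10 passed in that order, against 1097, 2462 and 1665 of the 9861 genes. By median-of-ratios scaling 0, 1 and 0 of the 10 passed after adjustment, where 1.84%, 3.80% and 1.29% of all genes did. By voom 0, 1 and 0 passed, where 1.49%, 3.33% and 1.24% did. Kl/Kl groups lay wholly below controls for 1 of the 10 in Bmp2+/+ males and 1 in females, both Agpat2, and for 0 in ∆UCS males, where 1.19%, 1.63% and 2.11% of all genes did. Lpin1 in Bmp2+/+ males was the 1 gene wholly above, where 5.77% of all genes were. In Bmp2+/+ females and ∆UCS males 0 of the 10 lay wholly above, where 28.3% and 8.20% of all genes did. With all 24 libraries 0 of the 10 passed in any Klotho comparison, where 0% of 9933 genes did. There 0 of the 10 lay wholly below or above controls. In Bmp2+/+ males, Bmp2+/+ females and ∆UCS males 0.282%, 0.503% and 2.10% of all genes then lay wholly below. In that order 0.775%, 11.7% and 8.17% lay wholly above.

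Most of the 10 genes had negative changes, while most genes at large had positive ones on the deposited scale. Changes were negative for 8, 8 and 7 of the 10 in Bmp2+/+ males, Bmp2+/+ females and ∆UCS males, where 38.5%, 20.8% and 17.9% of all genes were negative. The median log2 change of the 10 was −0.59, −0.51 and −0.63, against 0.09, 0.29 and 0.26 over all genes. Median-of-ratios scaling brought the median of all genes to −0.02, −0.02 and 0.02, and that of the 10 to −0.76, −0.95 and −0.91. Under that scaling 8, 10 and 10 of the 10 were negative, where 52.6%, 52.5% and 45.9% of all genes were. With all 24 libraries the medians of the 10 were −0.38, −0.24 and −0.63.

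Adipoq (ENSMUSG00000022878, mm39 chromosome 16, 22965286 to 22976779, plus strand) had 72.5, 75.4 and 51.4 TPM in Bmp2+/+ male Kl/Kl replicates 2 to 4, against 54.2, 48.5, 51.3 and 42.1 TPM in controls. Female Kl/Kl replicates 1, 3 and 4 had 55.8, 57.8 and 44.3 TPM, against 51.4, 45.5, 46.9 and 49.2 TPM in controls. ∆UCS males had 33.5, 68.8, 46.8 and 25.8 TPM in Kl/Kl aortas, against 46.0, 48.5, 49.4 and 53.7 TPM in controls. All 3 pairs of groups overlapped, and the ∆UCS Kl/Kl aortas lay on both sides of their controls. On the log2 scale the differences of Adipoq were 0.36, 0.12 and −0.26, with adjusted p of 0.614, 0.773 and 0.497 by limma, and the female change was −0.37 under median-of-ratios scaling.

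When every gene was expressed relative to Adipoq in the same library, Agpat2 stayed the member with the largest change in each Klotho comparison and did not pass in any. Its log2 difference was −2.61 ± 0.57 in Bmp2+/+ males, −1.81 ± 0.56 in Bmp2+/+ females and −1.51 ± 0.52 in ∆UCS males (SE), with adjusted p of 0.0538, 0.175 and 0.0871 by limma. Of the 10 genes 0 passed in each of these comparisons, where 0.274%, 1.32% and 0.903% of all genes did. At an unadjusted p below 0.05, 5, 3 and 1 of them passed, against 1105, 978 and 3822 of all 9860 genes. The values relative to Adipoq were −1.44, −1.30 and −0.35 for Dgat2, −1.39, −0.87 and −0.38 for Mgll, and −1.77, −0.45 and −0.48 for G0s2. Against the mean of the other general adipocyte markers in place of Adipoq, the values of Agpat2 were −2.26, −1.75 and −1.56, with adjusted p of 0.0575, 0.114 and 0.0942. With all 24 libraries and Adipoq, they were −2.06, −1.36 and −1.51, with adjusted p of 0.716, 0.716 and 0.0937.

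The comparison of ∆UCS with Bmp2+/+ males asks whether the Bmp2 mutation alters these genes with and without renal failure. In control aortas 0 of the 10 passed, where 0% of all genes did and 216 of 9861 had an unadjusted p below 0.05. In Kl/Kl aortas 0 of the 10 passed, again with 0% of all genes, 180 of them at an unadjusted p below 0.05. Counts were also 0 under median-of-ratios scaling and voom. The control means were 52.9 ± 18.2 TPM for Agpat2 in ∆UCS males and 43.5 ± 11.2 TPM in Bmp2+/+ males, and for Lipe 32.4 ± 3.80 TPM and 24.3 ± 6.68 TPM (SD, n = 4 each). The 10 log2 changes in controls ran from −0.31 (G0s2) to 0.34 (Lipe), and that of G0s2 was 0.03 with all 24 libraries and 0.21 without the library set. Under median-of-ratios scaling the negative values of Dgat1, Dgat2, Pnpla2, Mgll and Abhd5 in controls became positive, so that 9 of the 10 were positive. In Kl/Kl aortas they ran from −0.40 (Abhd5) to 0.81 (Agpat2, 95% interval −0.34 to 1.96). All ∆UCS libraries belonged to library set 1.

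**Figure D3:**
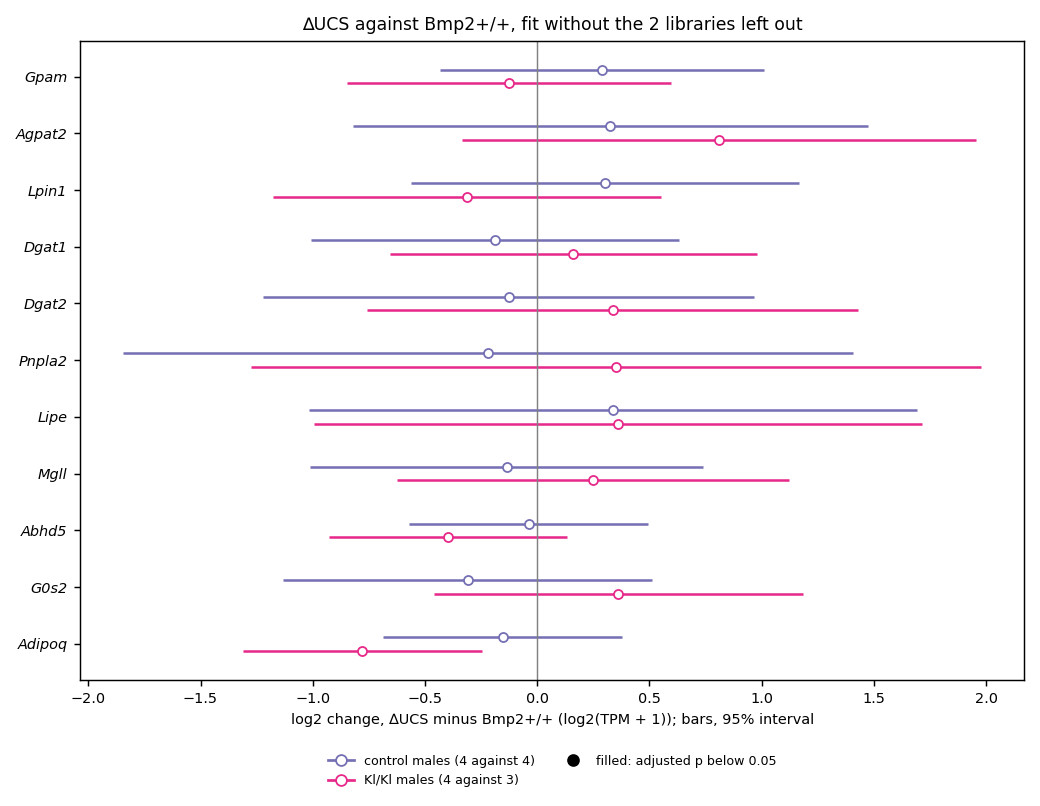
Change of each gene in ∆UCS relative to Bmp2+/+ males (horizontal axis, difference in log2(TPM + 1)), separately in control and in Kl/Kl aortas. Points are limma estimates and bars 95% intervals from the fit on 22 libraries. Every interval of the 10 genes spans 0, and that of Adipoq in Kl/Kl aortas runs from −1.31 to −0.25 without passing after adjustment (in control aortas the signs of Dgat1, Dgat2, Pnpla2, Mgll, Abhd5 and Adipoq reverse under median-of-ratios scaling and those of Dgat2 and G0s2 with all 24 libraries).

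Adipoq itself was measured at 43.7 ± 18.8 TPM in ∆UCS Kl/Kl males (SD, n = 4) and 66.4 ± 13.1 TPM in Bmp2+/+ Kl/Kl males (SD, n = 3), a log2 change of −0.78 with an adjusted p of 1.00 by limma. Relative to Adipoq, Agpat2 (1.59, adjusted p 0.0499) and Mgll (1.03, adjusted p 0.0493) passed between these groups. In the same fit 28.4% of all genes passed, so 2 of 10 is near the background. Without Bmp2+/+ male Kl/Kl replicate 3 or ∆UCS Kl/Kl replicates 1 or 4, 0 of the 10 passed. Without Bmp2+/+ male Kl/Kl replicate 2, 5 passed, where 40.7% of all genes did, and without ∆UCS Kl/Kl replicate 3, 4 passed, where 43.5% did. With all 24 libraries 0 of the 10 passed. The number of all genes called also moved widely as single libraries were left out, as given further on. These counts of 0 are therefore not read as a result about the 10 genes. In control males 0 of the 10 passed relative to Adipoq, where 0% of all genes did and 111 had an unadjusted p below 0.05.

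Covariation within groups is described here as Pearson r of deviations from group means over the 22 libraries, which share their scaling. Pnpla2 and Lipe had the closest relation (r = 0.93), followed by Dgat1 and Mgll (0.87), Pnpla2 and Mgll (0.81) and Lipe and Mgll (0.79). Agpat2 had r near 0 with Pnpla2 (−0.10) and Lipe (0.06), and higher r with Mgll (0.38), Gpam (0.54) and Dgat1 (0.49). G0s2 ran opposite to Lpin1 (−0.48), Pnpla2 (−0.45) and Lipe (−0.40). After median-of-ratios scaling the relation of Pnpla2 with Lipe was 0.86, that of Agpat2 with Gpam 0.73 and that of G0s2 with Pnpla2 −0.55. Adipoq was related to Pnpla2 at 0.43 as deposited and −0.27 after that scaling.

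**Figure D4:**
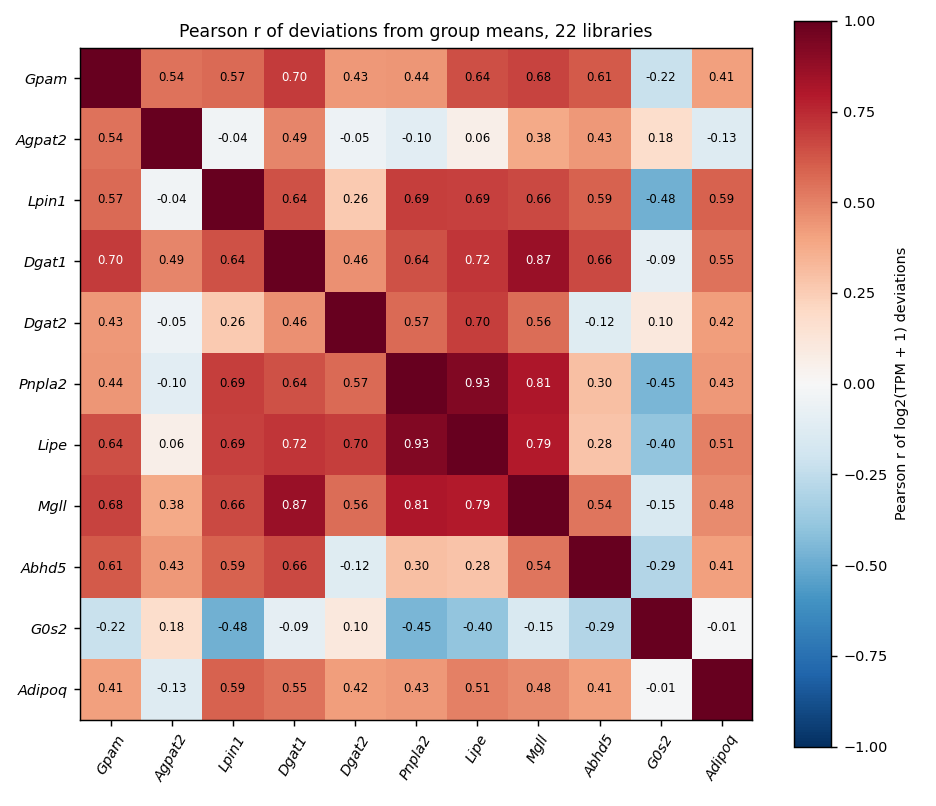
Pearson r between each pair of the 10 genes and Adipoq (rows and columns, in order of their roles), computed on deviations of log2(TPM + 1) from group means over 22 libraries, with red for positive and blue for negative r. Pnpla2, Lipe, Mgll, Dgat1 and Lpin1 form a block with r of 0.64 to 0.93. After median-of-ratios scaling Pnpla2 with Lipe stayed at 0.86, while Dgat1 with Pnpla2 was 0.28 and Lpin1 with Pnpla2 0.40. The row of G0s2 is mostly blue on the deposited scale, while after median-of-ratios scaling only its r with Lpin1, Pnpla2, Lipe and Mgll stayed negative.

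Likeness to the mean of the 10, each standardised over libraries, was measured by Pearson r. Of 2782 other genes with a mean of at least 5 TPM, the highest r of levels over 22 libraries were those of Cpt1b (0.94), which brings fatty acids into mitochondria in muscle and brown fat, Crat (0.94), carnitine acetyltransferase, Plin5 (0.94), which ties lipid droplets to mitochondria, Akap1 (0.91) and Slc25a51 (0.91), the mitochondrial NAD carrier. Within groups they were Cpt1b (0.93), Slc25a51 (0.93), Plin5 (0.93), Crat (0.92) and Cluh (0.91), which binds mRNAs of mitochondrial proteins. Adipoq was at 0.29 for levels and 0.56 within groups. Sums of endothelial markers (r = 0.86 within groups), general adipocyte markers (0.71), Schwann cell markers (0.63) and fibroblast markers (0.60), and the scaling factor of the library (0.53), also moved with the mean of the 10 within groups. The mitochondrial share and the sum of brown adipocyte markers each had an r of 0.02. Their part in the pattern was not tested.

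Other genes of the pathway were followed as lists, of which the members with too few TPM were not tested. The calls are those of the 22 libraries, in which 1.11% (Bmp2+/+ males), 2.63% (Bmp2+/+ females) and 0.649% (∆UCS males) of all genes passed, since 0 genes passed with all 24. Of 10 other assembly genes tested (17 listed), 0 passed in Bmp2+/+ males, 0 in Bmp2+/+ females and 1 in ∆UCS males. This was Pnpla3, a lipid droplet protein related to PNPLA2, at 0.121 to 0.364 TPM in ∆UCS Kl/Kl aortas and 1.37 to 5.52 TPM in their controls (log2 change −1.44, adjusted p 0.0181 by limma). Changes were negative for 9, 10 and 8 of the 10 assembly genes, with medians of −0.71, −0.49 and −0.07. Of 9 lipid droplet proteins 0 passed in any stratum, with medians of −0.16, −0.18 and −0.47. Cidec, which fuses droplets, had 32.7 to 72.4 TPM in Bmp2+/+ male Kl/Kl aortas and 21.8 to 55.5 TPM in controls. Plin4, a droplet coat protein, had 11.9 to 49.7 TPM in the same Kl/Kl aortas and 12.9 to 53.5 TPM in controls.

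All 11 genes of fatty acid synthesis had negative changes in Bmp2+/+ males and in ∆UCS males, and 10 of 11 in Bmp2+/+ females, with medians of −0.47, −0.90 and −0.88 in that order. Those that passed were Scd1 and Acaca in ∆UCS males, and 0 passed in either Bmp2+/+ stratum. Scd1, the stearoyl-CoA desaturase, fell, with 16.0 to 109 TPM in ∆UCS Kl/Kl aortas, against 182 to 794 TPM in controls (log2 change −3.09, adjusted p 0.0256 by limma). Acaca, acetyl-CoA carboxylase, fell, with 0.256 to 0.688 TPM in these Kl/Kl aortas, against 1.83 to 4.91 TPM in controls (−1.39, adjusted p 0.0407). Neither pair of groups overlapped.

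Of 9 other lipases and partners tested (14 listed), 1 passed, in ∆UCS males. Angptl8, which restrains lipoprotein lipase, fell, with 0.735 to 3.56 TPM in Kl/Kl aortas, against 3.91 to 9.67 TPM in controls (log2 change −1.63, adjusted p 0.039 by limma). The medians of the list were 0.12, −0.01 and −0.08. Of 13 genes of the hormone pathway of lipolysis tested (15 listed), 0 passed in any stratum, with medians of 0.11, −0.16 and −0.21. Gnas, the stimulatory G protein, had 7.79 to 21.2 TPM in Bmp2+/+ male Kl/Kl aortas and 16.6 to 30.3 TPM in controls.

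Markers of cell types moved with the Klotho genotype in part. The summed TPM of 10 brown adipocyte markers was 237 to 485 in Bmp2+/+ male Kl/Kl aortas and 780 to 1091 in controls, 228 to 552 in female Kl/Kl aortas and 608 to 865 in controls, and 332 to 1191 in ∆UCS Kl/Kl aortas and 743 to 983 in controls. The Bmp2+/+ groups did not overlap, and ∆UCS Kl/Kl replicate 4 was above its controls while the other 3 were below. All 7 brown markers tested had negative changes in each stratum, and 1 passed, Otop1 in Bmp2+/+ males (−1.47, adjusted p 0.0304 by limma). Ppargc1a, Ebf2 and Zic1 had too few TPM to be tested. In ∆UCS males the Kl/Kl means of Ppargc1a (0.709 TPM, controls 0.347) and Zic1 (0.0660 TPM, controls 0.0197) were higher and that of Ebf2 lower. In Bmp2+/+ males the mean of Ebf2 was higher and those of Ppargc1a and Zic1 lower, and in females all were lower. Ucp1 had 62.4 to 97.3 TPM in Bmp2+/+ male Kl/Kl aortas and 201 to 451 TPM in controls, and Cox8b 134 to 318 TPM and 391 to 649 TPM. The 2 libraries left out had brown marker sums of 713 (male) and 726 (female). The sum of 9 general adipocyte markers was 695 to 2102 in Bmp2+/+ male Kl/Kl aortas and 598 to 795 in controls, 450 to 1028 in female Kl/Kl aortas and 399 to 736 in controls, and 336 to 1462 in ∆UCS Kl/Kl aortas and 478 to 846 in controls, with overlap in each. Of these 9 markers, of which Cfd and Cebpa had the highest TPM, 0 passed. Fabp4, placed among the lipase partners, had changes of 0.12, 0.01 and −0.08.

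Of 10 macrophage markers tested (12 listed), 6 rose in Bmp2+/+ males, 8 in Bmp2+/+ females and 6 in ∆UCS males, where 1.11%, 2.63% and 0.649% of all genes passed, and their sums did not overlap between Kl/Kl aortas (286 to 777) and controls (44.9 to 222). The sums of the 2 libraries left out were 138 (male) and 73.3 (female). Lyz2, lysozyme, had 281 to 446 TPM in Bmp2+/+ male Kl/Kl aortas and 24.3 to 150 TPM in controls, and Mpeg1 57.6 to 71.9 TPM and 1.56 to 12.2 TPM. Of the markers of smooth muscle (8 tested), endothelium (4), fibroblasts (7), cardiomyocytes (6) and skeletal muscle (6), 0 passed in any stratum. Highest in TPM in that order were Tagln and Acta2, Tie1 and Pecam1, Col1a1 and Dcn, Nppa and Myl7, and Acta1 and Mylpf. Scgb3a1, of 6 airway markers led in TPM by Scgb1a1, rose in Bmp2+/+ females and in ∆UCS males. S100b, of 3 Schwann cell markers tested, fell in ∆UCS males. All 8 smooth muscle markers were detected in every library, with sums of 103 to 645 TPM.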

How the data were processed

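RNA-seq TPM values of 32561 genes in 24 mouse aortas were used as the authors deposited them. Per the submitters' processing notes they were made in Partek on mm39. The aligner, annotation and use of strand are not stated in any source at hand, so overlapping and near-identical genes are uncertain. Per the labels' protocols, RNA was extracted with miRNeasy and made into directional libraries from polyA RNA. Each deposited TPM column summed to 482073, and values were scaled by genomic span. Of 256077 values worth 0.5 to 20 estimated reads, 73.2% lay within 0.05 of a whole read. Estimated depth was 20593347 to 61109242 reads per library.

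Groups came from the labels. Nothing in them says that replicates share a litter. Some control and Kl/Kl library names hold neighbouring numbers, for animals of the same age and sex. Pairing by these was not tested, and all fits were unpaired. The 2 libraries whose Xist and Ddx3y went against the labelled sex were left out. limma 3.58.1 (R 4.3.3, eBayes with trend, two-sided) was fitted to log2(TPM + 1) of genes with at least 1 TPM in at least 4 libraries, with 6 group means and the library set as terms. The sets were inferred from 2 spellings of the library names, with all ∆UCS libraries in set 1. Fold changes on this scale understate those of low genes. P-values were adjusted by Benjamini-Hochberg over all genes tested, with a threshold of 0.05. A second fit used each gene minus Adipoq on the same scale. Descriptions used Python 3.11.15, numpy 2.4.6 and pandas 2.3.3. The fit was also run on simulated libraries, with large changes planted in well-covered genes of a single group. These held no differences in library set or cell mix, and no result here rests on them.

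Alternatives were all 24 libraries, median-of-ratios scaling, voom on estimated reads of at least 10, a pseudocount of 0.1, no filter, no library set, set 1 alone, a replicate block, other adipocyte markers in place of Adipoq, and each library left out in turn. The replicate block for values relative to Adipoq was added after seeing the data. The 10 genes and all lists were chosen with earlier results of these data known. Beyond the 10 genes and Adipoq, genes were named by rule. From each pathway list these were up to 4 called or else the 2 highest in mean TPM. The 2 highest in mean TPM of each marker list and the 5 most like the mean of the 10 were also named. Fabp4, Otop1, Spp1, Scgb3a1 and S100b were named after their values were seen, and 2 genes that the rule names are not reported here. Promoters came from RefSeq on GRCm38.p6, which is not the build of the table.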

Additional observations from a re-analysis of the deposited data

Results flagged for a closer look

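In 44 groups of 4 libraries (the 10 genes and Adipoq), a single library stood apart from the other 3 by more than Dixon's critical gap in 4 cases, and chance alone flags about 1 group in 20. Agpat2 was 60.1 TPM in Bmp2+/+ male control replicate 2, against 35.9 to 39.9 TPM in the other 3 controls. Without it the Agpat2 change in Bmp2+/+ males was −2.12 with an adjusted p of 0.122 by limma. Dgat2 was 20.6 TPM in Bmp2+/+ female control replicate 1, against 37.6 to 41.1 TPM in the other 3, and the same library was low in Pnpla2, Lipe and Mgll. G0s2 was 324.7 TPM in Bmp2+/+ male control replicate 3, against 161 to 186 TPM in the other 3. G0s2 was 256.4 TPM in ∆UCS Kl/Kl replicate 4, against 109 to 124 TPM in the other 3, and this library also had the highest Agpat2 and brown adipocyte marker sum of its group.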

How the results depend on the processing

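Of 343 single-gene values under alternatives other than leaving a library out, 311 kept their direction and side of the threshold, 18 reversed, 11 lost and 3 gained a call. Genes called fell to 0 in Bmp2+/+ males, Bmp2+/+ females and ∆UCS males with all 24 libraries. The 2 libraries added back are not ∆UCS, so the log2 changes in ∆UCS males stayed the same. All 6 groups share the estimate of the spread of each gene, so adding libraries to other groups can change the ∆UCS calls. Median-of-ratios scaling gave 181 in Bmp2+/+ males and 127 in ∆UCS males, and voom 330, 735 and 273 in the 3 strata. No filter gave 988 in females, no library set 101 in ∆UCS males, and set 1 alone 12 in Bmp2+/+ and 155 in ∆UCS males. Of the 10 genes, 0 were called in Bmp2+/+ males with all 24, median-of-ratios scaling, voom, no filter or set 1, and 1 in females with median-of-ratios scaling or voom. Over its 8 alternatives Agpat2 in Bmp2+/+ males ran from −2.55 to −1.75 with adjusted p of 0.0149 to 1.

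Reversed values, by median-of-ratios scaling and voom, were in females Lpin1 (−0.22, −0.36), Abhd5 (−0.35, −0.52) and Adipoq (−0.37, −0.43), and in ∆UCS males Lpin1 (−0.10, −0.22), Dgat1 (−0.24, −0.29) and Pnpla2 (−0.19, −0.23). Set 1 alone gave Abhd5 −0.013 in Bmp2+/+ males. Between ∆UCS and Bmp2+/+ controls, G0s2 was 0.033 with all 24 and 0.21 without the library set, and Adipoq 0.080, 0.10 and 0.015 by median-of-ratios scaling, voom and no library set. Outside that tally, Dgat1 (0.036, 0.057), Dgat2 (0.12, 0.091), Pnpla2 (0.021, 0.051), Mgll (0.077, 0.083) and Abhd5 (0.13, 0.19) also turned positive there under median-of-ratios scaling and voom, as did Dgat2 with all 24 (0.17), no library set (0.31) and set 1 (0.10), and Mgll with no library set (0.017). The cause was not tested.

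Relative to Adipoq, genes called were 0 in the 3 strata with all 24, and 65 in Bmp2+/+ males against other markers. Between ∆UCS and Bmp2+/+ Kl/Kl males, genes called were 0 against other markers and in the replicate block, and 0 of the 10 were called in these and with all 24.

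Leaving out single libraries gave 36 to 410 genes and 0 to 2 of the 10 in Bmp2+/+ males, 126 to 536 and 0 to 1 in females, 38 to 162 and 0 to 1 in ∆UCS males, and 0 to 1 genes for the difference between sexes. Log2 changes then ran in Bmp2+/+ males for Gpam from −0.50 to 0.0072, Dgat1 −0.53 to 0.023, Pnpla2 −1.03 to 0.41 and Abhd5 −0.01 to 0.39. In females Lpin1 ran from −0.087 to 0.44, Pnpla2 −1.20 to 0.54, Lipe −0.99 to 0.034 and Abhd5 −0.15 to 0.15. In ∆UCS males Lpin1 ran from −0.10 to 0.55, Dgat1 −0.28 to 0.38, Pnpla2 −0.18 to 0.57 and Abhd5 −0.25 to 0.054. Relative to Adipoq, 10 to 72 genes and 0 to 1 of the 10 were called in Bmp2+/+ males, 79 to 127 genes in females, 44 to 5174 and 0 to 1 in ∆UCS males, and 0 to 7410 and 0 to 5 between ∆UCS and Bmp2+/+ Kl/Kl males.

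Libraries of the same replicate number had correlated deviations of −0.478 to 0.321 and matched best in 2 of 17 pairs. Correlations of expression in groups of 3 or 4 libraries cannot tell whether animals of the same replicate number were paired. Pairing by neighbouring numbers in the library names was not tested. The replicate block gave 97, 184 and 50 genes and 1, 0 and 0 of the 10 in the 3 strata. Relative to Adipoq it gave 30, 97 and 423 genes and 1, 0 and 0 of the 10, with Agpat2 in Bmp2+/+ males at −2.91 and an adjusted p of 0.0148. With 3 or 4 libraries a group, intervals of about 1 log2 unit or more on either side were left for Pnpla2 and Lipe, and narrower ones for Mgll.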
